A study of Mus musculus with 10 samples.

Results

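A module of 237 genes was followed through the first week in which mouse embryonic fibroblasts were driven towards pluripotency. The members were chosen by their levels in log2 CPM (read counts scaled to the library total): each was higher by 1 or more at D1 than at D0, and lower by 1 or more at D7 than at D3, in replicate 1 and again in replicate 2. Of 12752 genes that passed a filter on low counts, 247 met these limits, and 10 of them were left out by name, which left 237 (1.86% of the genes tested). The filter was applied before the limits, so all 237 had passed it. The levels at D0, D1, D3 and D7 thus selected the members, and both of these moves are given as a description, with no test.

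The cells were primary mouse embryonic fibroblasts, connective tissue cells grown from E13.5 embryos and used at passage 2. The mothers were 129S4/SvJaeJ and the fathers CBA/CaJ × C57BL/6J mice with an Oct4-GFP transgene, which marks cells that switch on the pluripotency gene Oct4. All groups carried the same 4 retroviruses, for Jdp2, Sall4, Esrrb and Glis1, put on the cells for 48 hours, and all were then held in a medium named iCD3. D0 was taken with no time in that medium, and D1, D3, D5 and D7 after that number of days. Each day had 2 libraries, 10 in all, from bulk cultures, and no library of uninfected cells or of other medium is part of the comparison. In bulk RNA, more cells of a type cannot be told apart from more RNA per cell. The labels do not say which culture a replicate number stands for, although the series text speaks of independent experiments. The p-values thus weigh a change between days against how far libraries of the same day differ, and part of that may be technical.

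Reprogramming is known to run in phases: fibroblast genes are silenced early, the pluripotency network comes on late, and between them a large set of genes is switched on for a time only. Jdp2 is a repressor of the AP-1 family, Sall4 and Glis1 are zinc finger factors, and Esrrb is an orphan nuclear receptor that binds DNA as a monomer and is known for its control of energy metabolism as well as of pluripotency. Lysosomes are digestive compartments kept acid by the vacuolar ATPase, a proton pump, and the transcription factor Tfeb is known to drive many lysosomal genes through the E-box CACGTG.

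The replicate 1 libraries were the deeper ones, at 2176457 to 4335931 estimated counts, against 1329377 to 1492105 for replicate 2. At that depth 3 counts, the limit that a count of 0 allows, stood for 0.692 to 2.26 CPM, and such limits cover counting error only. Fragments, as read from the effective gene lengths in the files, averaged 135.8 to 158.5 bases for replicate 1 and 198.8 to 204.1 for replicate 2, and the labels name 2 library kits for every sample. The replicate number, the depth and the fragment length therefore cannot be told apart. Summed over 15 fibroblast markers, the level was 14251 to 16132 CPM at D0, 3511 to 5155 at D1, 1660.1 to 2257 at D3, 1175 to 2181 at D5, and 1063 to 1532 at D7, and no fibroblast marker was a member. The 26 neuron markers summed to 142 to 189 CPM at D0, 258 to 421 at D1, 335 to 486 at D3, 294 to 498 at D5, and 281 to 284 at D7, with the neurofilament genes Nefh and Nefm as members. The 10 erythroid markers summed to 176 to 239 CPM at D0, 384 to 476 at D1, 483 to 652 at D3, 259.8 to 547 at D5, and 259 to 439 at D7, with Hbb-bs and Hbb-bt at 0 in every library. The 11 keratinocyte markers summed to 51.9 to 60.6 CPM at D0, 81.3 to 129 at D1, 48.3 to 51.4 at D3, 32.9 to 80.4 at D5, and 14.5 to 29.2 at D7, with the member Krt15 among them. The 4 delivered factors, of which none was a member, summed to 4674 to 5280.3 CPM at D0, 5979 to 6535 at D1, 5090.2 to 7193 at D3, 2209 to 3539 at D5, and 1563 to 1740.2 at D7. Skeletal muscle markers went the other way, from 239.6 to 308 CPM at D0 to 59 to 107 at D1. Endothelial markers summed to 277 to 344 CPM at D0 and 187 to 245 at D1. Sums for cardiac muscle, Schwann cell and neural crest, chondrocyte and adipocyte markers were also lower at D1 than at D0. Those for macrophage markers overlapped. The sums thus moved only in part with the module, and their part in it was not tested.

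The 237 members together took up 4487 and 4378 CPM at D0, 21730 and 20348 at D1, 23994 and 29866 at D3, 8731 and 20041 at D5, and 6223 and 7318 at D7 (replicates 1 and 2). The median member had 4.89 and 4.49 CPM at D0, 31.0 and 26.3 at D1, 39.2 and 49.9 at D3, 16.2 and 33.2 at D5, and 10.2 and 9.86 at D7. Both D1 and both D3 libraries were high, both D0 and both D7 libraries low, and at D5 the libraries stood apart, with replicate 2 close to its D1 level and replicate 1 nearer to D7. Over all genes tested the median stayed between 28.6 and 30.0 CPM in the 10 libraries. The 3 members of highest mean CPM (Ldhb, Isyna1 and Cdkn1c) held 13.9% to 23.0% of the summed CPM of the module in a library.

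**Figure D1:**
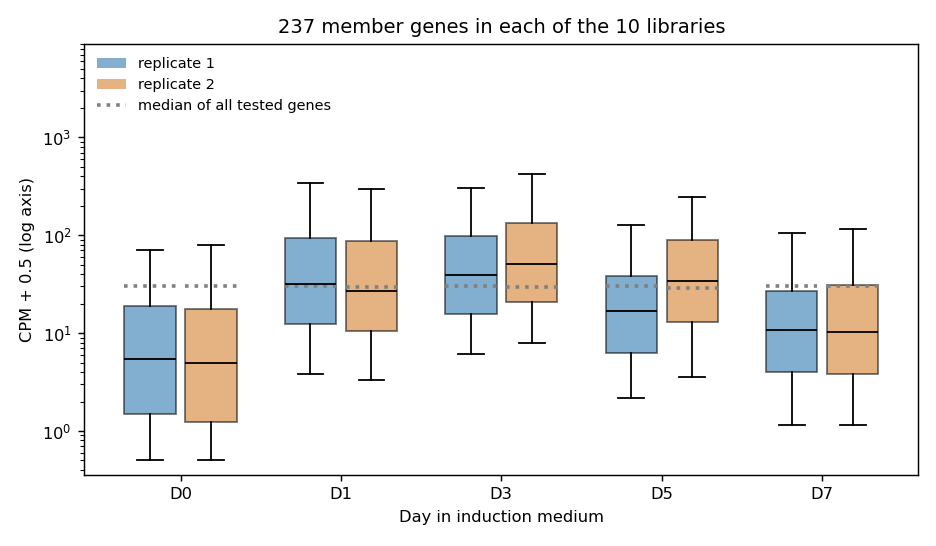
Levels of the 237 members in each library, as CPM + 0.5 on a log axis, by day in the induction medium; boxes span the quartiles with the median as a line, whiskers the 5th to 95th percentile, and dotted lines give the median of all 12752 genes tested. The median member lay near 5 CPM at D0, between 26.3 and 49.9 CPM at D1 and D3 and near 10 CPM at D7, and at D5 replicate 2 (33.2 CPM) lay above replicate 1 (16.2 CPM).

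Enzymes of fuel use included the most abundant member. By deposited TPM, a unit that allows for gene length, this was Ldhb, with a mean of 2804 TPM at D1 and 2755 at D3, against a median of 21.6 over the members and 18.2 over all genes tested. Ldhb (chromosome 6, 142490249 to 142507957), the heart-type subunit of lactate dehydrogenase, had 403 and 364 CPM at D0, 2053 and 1493 at D1, 1929 and 2005 at D3, 478 and 1628 at D5, and 295 and 432 at D7. Mdh1 (chromosome 11, 21556787 to 21572367), the cytosolic malate dehydrogenase, had 188 and 136 CPM at D0, 407 and 286 at D1, 473 and 425 at D3, 233 and 371 at D5, and 184 and 173 at D7. Isyna1 (chromosome 8, 70594373 to 70597290), which makes inositol phosphate from glucose phosphate, had 79.7 and 108 CPM at D0, 1121 and 1253 at D1, 1647 and 2168 at D3, 478 and 1775 at D5, and 271 and 451 at D7. In all 3 genes the D5 replicate 2 library was nearer to the D3 libraries and the D5 replicate 1 library nearer to the D7 libraries.

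Pdk1 (chromosome 2, 71873224 to 71903858), a kinase that holds pyruvate back from oxidation in the mitochondria and a known hypoxia target, had 23 and 15.7 CPM at D0, 477 and 209.9 at D1, 873 and 619.9 at D3, 482 and 455 at D5, and 414 and 259.5 at D7. Car2 (chromosome 3, 14886273 to 14900770), a cytosolic carbonic anhydrase, had 13.7 and 9.73 CPM at D0, 292 and 193 at D1, 565 and 564 at D3, 248 and 504 at D5, and 180.1 and 212 at D7. Neither Pdk1 nor Car2 came back to its D0 level: the lowest D7 library lay over 10 times above the highest D0 library in both. D7 was tested against D0 with the quasi-likelihood test of edgeR, at a Benjamini-Hochberg adjusted p under 0.05 over all genes, which called 9.15% of all genes higher and 8.71% lower. In that test Pdk1 rose by 4.10 on the log2 scale (SE 0.48, edgeR adjusted p = 0.000387) and Car2 by 4.04 on the log2 scale (SE 0.44, edgeR adjusted p = 0.000275). Both calls remained without any 1 library. The rule used both D0 and D7, so calls on members between these days are a description. List counts, here and below, are to be read beside the shares of all genes and the 1.86% of genes tested that were members. Of 22 hypoxia target genes tested, 12 rose and 1 fell at D7 against D0, and only Pdk1 was a member.

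Of 29 tested genes of fatty acid, ketone and acetate oxidation, a list put together after the members were known, 6 were members, namely Acss1, Bdh1, Cpt1a, Cpt1b, Pdk1 and Ppargc1b. The list thus also took in Pdk1, which acts on pyruvate rather than on these fuels. Cpt1a (chromosome 19, 3322334 to 3385733), the liver-type gate enzyme for fatty acid entry into mitochondria, had 47.5 and 38.9 CPM at D0, 334 and 158 at D1, 312 and 419.5 at D3, 126 and 144 at D5, and 82 and 114 at D7. Acss1 (chromosome 2, 150618105 to 150668500), the mitochondrial acetyl-CoA synthetase, had 1.47 and 0.748 CPM at D0, 31 and 11.4 at D1, 97.7 and 79 at D3, 24.4 and 34.8 at D5, and 15.7 and 14.5 at D7. Acss1 rose at D7 against D0 (log2 change 3.63, SE 0.66, edgeR adjusted p = 0.00394), while Cpt1a had a log2 change of 1.17 that missed the threshold (edgeR adjusted p = 0.0582). Bdh1, a ketone body enzyme, had 37.7 and 58.4 CPM at D0, 108 and 118 at D1, 137 and 152 at D3, 64 and 149 at D5, and 43.7 and 53.9 at D7. Cpt1b, the muscle-type isoform of Cpt1a, had 0.489 and 5.24 CPM at D0, 14 and 14.2 at D1, 17.6 and 17.9 at D3, 4.11 and 6.19 at D5, and 4.13 and 4.6 at D7. Ppargc1b, a coactivator of oxidative metabolism, had 4.89 and 4.49 CPM at D0, 25 and 25.6 at D1, 13.8 and 30.6 at D3, 4.83 and 10.8 at D5, and 3.05 and 10.5 at D7. All 3 were high at D1 and D3, and none was called at D7 against D0, with log2 changes of 0.02, 0.73 and 0.37. Of the 29 genes of the list, 3 rose and 2 fell at D7 against D0.

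Aldehyde dehydrogenase and cytochrome P450 genes gave 4 members of 29 tested. Aldh1a3 (chromosome 7, 66390890 to 66427517), which makes retinoic acid, had 7.83 and 7.48 CPM at D0, 107 and 82.5 at D1, 25.5 and 46.9 at D3, 17.6 and 42.5 at D5, and 8.7 and 7.23 at D7. Aldh4a1, of proline breakdown, had 46 and 44.2 CPM at D0, 172 and 199 at D1, 129.9 and 213 at D3, 55.3 and 75.8 at D5, and 47.4 and 60.5 at D7. Aldh3b1, which oxidises medium and long chain aldehydes, had 2.94 and 2.25 CPM at D0, 17.3 and 31.3 at D1, 32.5 and 57.4 at D3, 13.5 and 45.6 at D5, and 10.4 and 10.5 at D7. The D1 libraries were the high ones for Aldh1a3, whereas D3 replicate 2 was highest for the other two genes. Cyp2s1, a cytochrome P450, had 17.1 and 15 CPM at D0, 297 and 112 at D1, 114 and 88.7 at D3, 23.2 and 31.7 at D5, and 26.3 and 8.54 at D7. Gsta1, a glutathione transferase, had 0 and 0 CPM at D0, 4.26 and 2.85 at D1, 9.36 and 1.49 at D3, 0 and 9.28 at D5, and 0.653 and 0 at D7, few counts in all, with D3 and D5 libraries that disagreed. Chka, the choline kinase that starts phosphatidylcholine synthesis, rose at D7 against D0 (log2 change 1.28, SE 0.28, edgeR adjusted p = 0.0099).

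Lysosomal genes were looked at next. Of 53 lysosomal genes tested, on a list also put together after the members were known, 7 (13.2%) were members (Ctsc, Dpp7, Plbd2, Slc36a1, Tcirg1, Tfeb and Tpcn1). Of 17 tested vacuolar ATPase genes 4 were members (Atp6v0b, Atp6v0e2, Atp6v1c2 and Tcirg1). Atp6v1c2 (mean 3.46 TPM) is overlapped on the other strand by Pdia6 (mean 205 TPM). Its counts may hold Pdia6 reads, since no source says if the counting used strand. Tcirg1 (chromosome 19, 3896050 to 3907133), the a3 subunit of the pump, known from osteoclasts, had 74.9 and 103 CPM at D0, 346 and 696 at D1, 472 and 1125 at D3, 115 and 425 at D5, and 109.9 and 149.8 at D7. Tpcn1 (chromosome 5, 120534153 to 120588673), a cation channel of endosomes and lysosomes, had 46 and 85.3 CPM at D0, 389.8 and 504 at D1, 279 and 452 at D3, 144 and 232 at D5, and 133 and 152 at D7. The transcription factor Tfeb had 14.2 and 21 CPM at D0, 89.2 and 104 at D1, 79.9 and 129.7 at D3, 26.3 and 91.2 at D5, and 16.3 and 28.3 at D7. For Tcirg1 every replicate 2 library was above the replicate 1 library of its day, and both D3 libraries were the highest of their replicate.

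Dpp7, a lysosomal dipeptidase, had 10.3 and 17.2 CPM at D0, 46 and 45.5 at D1, 88.4 and 113 at D3, 21.5 and 69.6 at D5, and 22 and 21 at D7. Slc36a1, a proton-coupled amino acid transporter of lysosomes, had 42.1 and 32.2 CPM at D0, 126 and 108 at D1, 143 and 165 at D3, 54.1 and 88.2 at D5, and 35 and 50.6 at D7. Atp6v0b, a subunit of the membrane part of the pump, had 56.3 and 78.6 CPM at D0, 114 and 179 at D1, 148 and 197 at D3, 62.3 and 182 at D5, and 54.2 and 88 at D7. In these 3 genes too, D5 replicate 2 exceeded D5 replicate 1. Plbd2 and Ctsc, a phospholipase-like protein and the protease cathepsin C, reached means of 272 and 179 CPM at D3. At D7 against D0 the only call among these 10 genes was Atp6v0e2, a further membrane subunit, which rose (log2 change 2.15, SE 0.53, edgeR adjusted p = 0.017). The other 13 vacuolar ATPase genes were not members. Among them Atp6v0a2, an alternative to Tcirg1 in the pump, had 79.3 and 93.6 CPM at D0, 87.3 and 87.5 at D1, 49.5 and 64.8 at D3, 42 and 47.2 at D5, and 31.5 and 29.6 at D7 and fell at D7 against D0 by 1.49 on the log2 scale (edgeR adjusted p = 0.00483). Over all 53 lysosomal genes 4 rose and 2 fell at D7 against D0, with a median log2 change of 0.08, against 0.06 over all genes tested.

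The E-box CACGTG was looked for in the promoters of RefSeq (GRCm38.p6), from 250 bases before to 50 bases after the listed start. A promoter was found for 160 of the 237 members and for 9645 of the 12752 genes tested. The motif, which is its own reverse complement and holds the hypoxia core ACGTG, lay in 13 of 160 member promoters (8.12%) and in 10.6% of all. Most of the 13 were in neither the lysosomal nor the vacuolar ATPase list, such as Aqp5 and Rap1gap. Among the members in those lists 3 held it. No share of lysosomal promoters is given here, so these are examples only. Their promoters are printed to show where the motif lies, in capitals, with the strand of the gene read 5′ to 3′.
Atp6v0b, chr4:117887280-117887579, minus strand: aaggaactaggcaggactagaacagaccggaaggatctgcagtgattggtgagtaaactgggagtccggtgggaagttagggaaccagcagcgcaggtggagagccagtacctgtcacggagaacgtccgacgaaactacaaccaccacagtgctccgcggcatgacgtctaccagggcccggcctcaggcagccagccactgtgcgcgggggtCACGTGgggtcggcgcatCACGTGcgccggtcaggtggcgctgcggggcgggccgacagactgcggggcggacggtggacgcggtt
Slc36a1, chr11:55204090-55204389, plus strand: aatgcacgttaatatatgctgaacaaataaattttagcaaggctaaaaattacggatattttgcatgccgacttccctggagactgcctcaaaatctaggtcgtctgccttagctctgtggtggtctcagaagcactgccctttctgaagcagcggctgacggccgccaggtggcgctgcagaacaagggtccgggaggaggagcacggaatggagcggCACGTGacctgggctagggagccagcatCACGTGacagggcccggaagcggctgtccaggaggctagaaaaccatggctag
Dpp7, chr2:25356283-25356582, minus strand: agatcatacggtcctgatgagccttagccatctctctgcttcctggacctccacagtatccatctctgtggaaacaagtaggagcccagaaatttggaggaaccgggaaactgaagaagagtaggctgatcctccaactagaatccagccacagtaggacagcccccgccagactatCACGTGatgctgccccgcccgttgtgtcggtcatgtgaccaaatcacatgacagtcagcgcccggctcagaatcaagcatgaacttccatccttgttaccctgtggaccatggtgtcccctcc
Counted from the start site, the motifs lay at -36 and -18 in Atp6v0b, at -31 and -3 in Slc36a1 and at -73 in Dpp7. A match shows only that these letters are present.

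**Figure D2:**
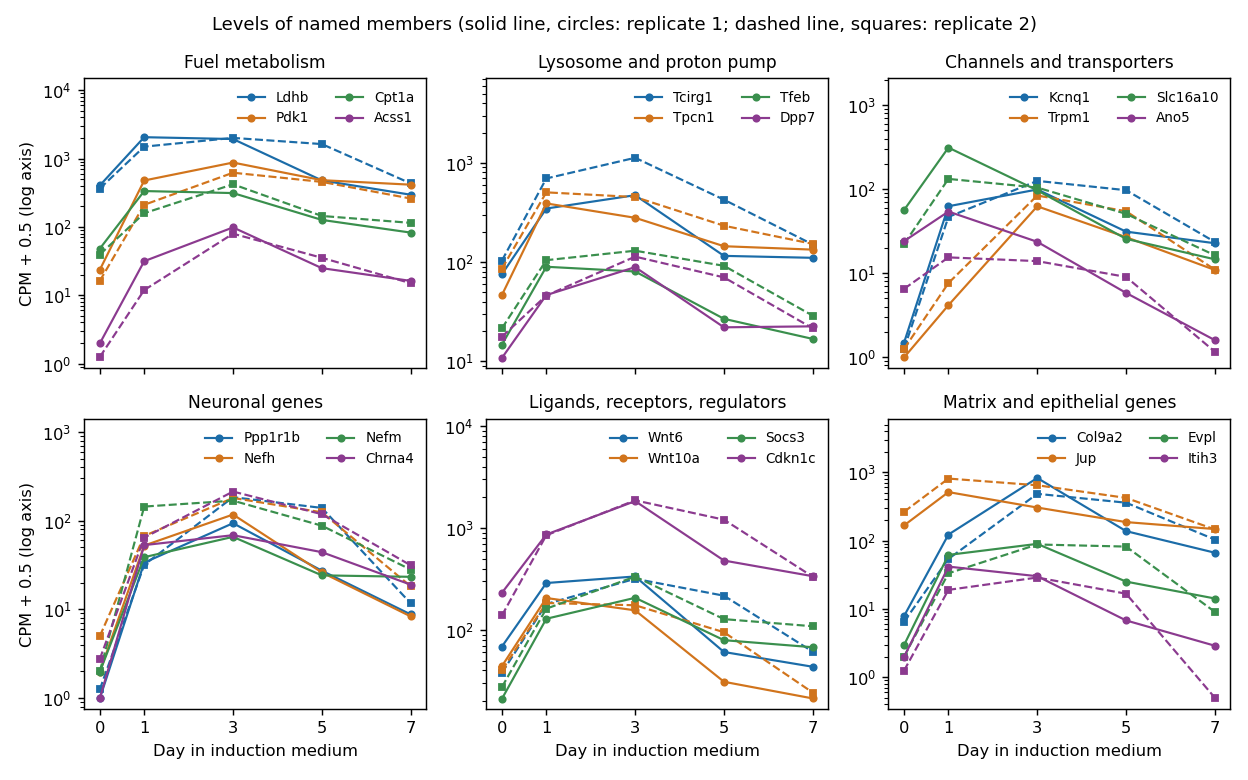
Levels of 24 named members in 6 groups by role, as CPM + 0.5 on log axes, by day in the induction medium, with replicate 1 as solid lines with circles and replicate 2 as dashed lines with squares. Most lines are highest at D1 or D3, and at D5 most dashed lines, such as that of Ldhb (1628 CPM against 478 CPM), lie above the solid ones.

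Solute carriers gave 12 members of 201 tested. Slc16a10 (chromosome 10, 40033532 to 40142258), an aromatic amino acid transporter, had 55.8 and 21.7 CPM at D0, 312 and 132 at D1, 96.3 and 104 at D3, 25.1 and 50.3 at D5, and 14.1 and 15.8 at D7. Slc16a6, of the same monocarboxylate family, had 7.83 and 3.74 CPM at D0, 87 and 89.6 at D1, 80.2 and 125 at D3, 31.2 and 37.9 at D5, and 37.2 and 18.4 at D7. Slc16a12, a creatine transporter, had 0 and 0 CPM at D0, 9.43 and 2.13 at D1, 12 and 20.9 at D3, 6.04 and 6.19 at D5, and 5 and 7.88 at D7. Slc16a10 was lower in both D7 libraries than in both D0 libraries, with a log2 change of -1.41 that missed the threshold (edgeR adjusted p = 0.1). Slc16a6 rose at D7 against D0 (log2 change 2.24, SE 0.48, edgeR adjusted p = 0.00863), and so did Slc16a12, which had 0 counts in both D0 libraries and was at least 6.44-fold higher at D7 against a floor of 3 counts over both D0 libraries (edgeR adjusted p = 0.0137). Reads of Slc16a6 may be shared with the overlapping gene Amz2, since no source says if the counting used strand.

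The zinc exporters and vesicle zinc transporters of the Slc30 family gave 3 members of 19 tested genes of the Slc30 and Slc39 families, which were counted after the members were known. Slc30a1, the zinc exporter of the cell surface, had 22 and 8.23 CPM at D0, 66 and 32 at D1, 54.4 and 58.9 at D3, 32.1 and 58 at D5, and 13.5 and 10.5 at D7. Slc30a2, which fills vesicles with zinc, had 2.94 and 0.748 CPM at D0, 15.5 and 12.1 at D1, 117 and 103 at D3, 30.4 and 138 at D5, and 11.5 and 32.2 at D7. Slc30a3, the zinc transporter of synaptic vesicles, had 0 and 0 CPM at D0, 4.26 and 15.7 at D1, 7.02 and 28.3 at D3, 1.69 and 17.8 at D5, and 1.09 and 7.23 at D7. The peak of Slc30a2 lay at D3 and D5 replicate 2, and the gene was called higher at D7 than at D0 (log2 change 3.33, SE 0.92, edgeR adjusted p = 0.0296). Slc30a3 was higher in every replicate 2 library from D1 on, and both D0 libraries held 0 counts.

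Amino acids and peptides were the cargo of a further set. Slc43a2, a neutral amino acid transporter, had 11.7 and 18.7 CPM at D0, 78.5 and 57.6 at D1, 125 and 141 at D3, 36.7 and 69.6 at D5, and 26.3 and 24.3 at D7. Slc7a9, the light subunit of the cystine transporter, had 0 and 0 CPM at D0, 7.61 and 2.13 at D1, 21.4 and 25.3 at D3, 12.6 and 28.6 at D5, and 5.22 and 3.29 at D7. Slc15a1, a peptide transporter of the gut, had 0.979 and 0 CPM at D0, 12.8 and 11.4 at D1, 12.9 and 20.1 at D3, 5.56 and 2.32 at D5, and 5.44 and 0.657 at D7. Slc7a9 rose too and was at least 5.34-fold higher at D7 against a floor of 3 counts over both D0 libraries (edgeR adjusted p = 0.0202). Slc37a4, the glucose 6-phosphate translocase, had 5.87 and 3.74 CPM at D0, 39.3 and 24.2 at D1, 37.5 and 35.8 at D3, 15.9 and 36.3 at D5, and 13.9 and 9.86 at D7. Slc26a2, the sulfate transporter of cartilage, had 32.8 and 22.5 CPM at D0, 301 and 162 at D1, 109 and 149.8 at D3, 61.4 and 58 at D5, and 49.6 and 37.5 at D7. Steap3 (chromosome 1, 120190757 to 120272705), an endosomal iron reductase, had 20.1 and 14.2 CPM at D0, 189.6 and 226 at D1, 169 and 300.3 at D3, 51.7 and 199 at D5, and 26.1 and 32.2 at D7. Slc26a2 was highest in both D1 libraries, and Steap3 was higher in both D7 than in both D0 libraries without a call (log2 change 0.73, edgeR adjusted p = 0.439). Of the 201 solute carriers, 35 rose and 13 fell at D7 against D0. Matched by symbol, they include Slc9a3r1, which rose, and Slc9a3r2, which are named after the family but are not transporters.

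Ion channels came from several families. Kcnq1 (chromosome 7, 143106362 to 143427042), a voltage-gated potassium channel of heart and inner ear, had 0.979 and 0.748 CPM at D0, 62.1 and 46.2 at D1, 98.6 and 125 at D3, 30.7 and 96.7 at D5, and 22.2 and 23 at D7. Kcnj4, an inward rectifier, had 6.36 and 7.48 CPM at D0, 38.3 and 24.2 at D1, 24 and 23.1 at D3, 4.35 and 14.7 at D5, and 1.96 and 1.97 at D7. Kcnc2, a fast voltage-gated channel of interneurons, had 0.489 and 0 CPM at D0, 6.09 and 3.56 at D1, 12 and 11.9 at D3, 4.11 and 6.96 at D5, and 2.18 and 1.97 at D7. Kcnq1 rose at D7 against D0, with a ratio of pooled counts of 25.2 (exact 95% counting interval 8.45 to 124) and an edgeR adjusted p of 0.00236 that stayed at or under 0.0326 without any 1 library. Kcnj4 went the other way, lower in both D7 than in both D0 libraries (log2 change -1.78, edgeR adjusted p = 0.09), and was not called. Of 20 tested potassium channel genes 2 rose and none fell at D7 against D0. The list was matched by symbol and also held Kcnq1ot1, a non-coding RNA, which was not called.

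Scn11a, a sodium channel of sensory neurons, had 0.489 and 0 CPM at D0, 4.87 and 3.56 at D1, 5.27 and 10.4 at D3, 6.04 and 6.96 at D5, and 1.09 and 2.63 at D7. Itpr2, a calcium release channel of the endoplasmic reticulum, had 18.1 and 12 CPM at D0, 77.9 and 51.9 at D1, 96.9 and 113 at D3, 37.2 and 22.4 at D5, and 23.5 and 23.7 at D7. For Itpr2 the D5 replicate 2 library was already at the D7 level, and the D5 replicate 1 library was above it. Trpm1, a cation channel of melanocytes and retinal bipolar cells, had 0.489 and 0.748 CPM at D0, 3.65 and 7.11 at D1, 62 and 83.5 at D3, 26.3 and 54.1 at D5, and 10.4 and 10.5 at D7. Ano4, of the anoctamin family, had 6.85 and 1.5 CPM at D0, 56 and 16.4 at D1, 35.1 and 22.4 at D3, 11.4 and 8.51 at D5, and 3.05 and 3.94 at D7. Ano5 (chromosome 7, 51511029 to 51598709), an anoctamin known from muscle disease, had 23.5 and 5.99 CPM at D0, 53.6 and 14.9 at D1, 23.1 and 13.4 at D3, 5.31 and 8.51 at D5, and 1.09 and 0.657 at D7. Trpm1 was low at D1 and high at D3 in both replicates, whereas Ano5 was highest at D1 and ended far below its start. At D7 against D0 Trpm1 rose with a ratio of pooled counts of 17.7 (exact 95% counting interval 4.7 to 149, edgeR adjusted p = 0.00403), and Ano5 fell (log2 change -3.92, SE 0.91, edgeR adjusted p = 0.0132).

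Genes known from neurons included the 2 members whose smallest required change was largest. Ppp1r1b (chromosome 11, 98348404 to 98357796), the dopamine-regulated phosphatase inhibitor DARPP-32, had 0.489 and 0.748 CPM at D0, 33.2 and 31.3 at D1, 93.3 and 184 at D3, 26.8 and 139 at D5, and 8.27 and 11.2 at D7. Nefh (chromosome 11, 4938754 to 4948064), the heavy neurofilament, had 1.47 and 4.49 CPM at D0, 52 and 66.9 at D1, 117 and 180.3 at D3, 25.6 and 124 at D5, and 7.83 and 17.7 at D7. Nefm, the medium neurofilament, had 1.47 and 1.5 CPM at D0, 38.3 and 144 at D1, 65.3 and 168 at D3, 23.7 and 87.4 at D5, and 22.8 and 27.6 at D7. For all 3 genes both D3 libraries were above both D0 and both D7 libraries, and replicate 2 was above replicate 1 at D3, D5 and D7. Ppp1r1b rose at D7 against D0 with a ratio of pooled counts of 15.2 (exact 95% counting interval 4.01 to 129, edgeR adjusted p = 0.0423). Nefm rose as well (log2 change 4.03, SE 1.05, edgeR adjusted p = 0.0227), and Nefh had a log2 change of 2.11 (edgeR adjusted p = 0.145). Of 14 tested neuronal cytoskeleton and neuron markers, 6 rose and none fell at D7 against D0, and 2 were members. Nefm is overlapped by Nefl, another neurofilament gene, on the other strand.

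Of 17 tested neurotransmitter receptor genes 2 were members (Chrna4 and Grm4), and of 16 synaptic vesicle and exocytosis genes 2 (Syn2 and Syt7). Chrna4 (chromosome 2, 181018380 to 181043546), a nicotinic acetylcholine receptor subunit, had 0.489 and 2.25 CPM at D0, 52.6 and 64 at D1, 68.2 and 213 at D3, 43.7 and 118 at D5, and 18.5 and 30.9 at D7. Grm4, a metabotropic glutamate receptor, had 1.47 and 0.748 CPM at D0, 17 and 4.98 at D1, 47.1 and 34.3 at D3, 15.9 and 30.2 at D5, and 4.57 and 1.97 at D7. Shisa8 (chromosome 15, 82206168 to 82212815), a member of a family that modulates AMPA receptors, had 3.42 and 3.74 CPM at D0, 22.5 and 39.8 at D1, 45.6 and 93.1 at D3, 8.7 and 87.4 at D5, and 5.87 and 13.1 at D7. Chrna4 rose at D7 against D0 (log2 change 4.26, SE 0.93, edgeR adjusted p = 0.00993), while for Shisa8 the D5 libraries stood apart, replicate 2 at the D3 level and replicate 1 near D7. Syn2, a synapsin that tethers vesicles, had 1.47 and 0 CPM at D0, 22.5 and 7.83 at D1, 16.4 and 20.1 at D3, 3.14 and 11.6 at D5, and 3.26 and 6.57 at D7. Syt7, a calcium sensor of exocytosis, had 11.7 and 13.5 CPM at D0, 47.8 and 49.1 at D1, 30.7 and 41.7 at D3, 9.42 and 20.1 at D5, and 7.83 and 8.54 at D7. Nptx2, a secreted pentraxin of excitatory synapses and the only member among 18 tested cAMP and CREB response genes, had 11.7 and 8.98 CPM at D0, 47.5 and 39.8 at D1, 57.4 and 77.5 at D3, 20 and 54.9 at D5, and 16.3 and 16.4 at D7. Of these, Syt7 was the only gene lower in both D7 than in both D0 libraries, and none was called in that comparison.

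Nrtn, neurturin, a ligand of the GDNF family, had 6.85 and 6.74 CPM at D0, 36.2 and 37.7 at D1, 101 and 73 at D3, 18.1 and 107 at D5, and 12.2 and 30.2 at D7. Plxna4, a semaphorin receptor, had 13.7 and 12.7 CPM at D0, 65.4 and 148 at D1, 33.7 and 67.1 at D3, 22.7 and 15.5 at D5, and 5.87 and 15.1 at D7. Sema3b, a secreted semaphorin, had 19.6 and 9.73 CPM at D0, 61.2 and 42.7 at D1, 47.1 and 50.7 at D3, 7.49 and 23.2 at D5, and 7.83 and 9.86 at D7. None of the 3 was called at D7 against D0 (log2 changes 1.57, -0.45 and -0.79), and of 50 tested axon guidance genes 5 rose and 10 fell at D7 against D0. Over all genes 9.15% were called higher and 8.71% lower. Gpr135, an orphan receptor, had 3.42 and 0 CPM at D0, 11 and 8.54 at D1, 11.1 and 7.45 at D3, 5.31 and 3.87 at D5, and 3.26 and 3.29 at D7. Its D1 and D3 libraries were the highest, and its D7 libraries were close to the 3-count limit of the shallower libraries.

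Wnt6 and Wnt10a were the members of the Wnt family. Wnt6 (chromosome 1, 74771892 to 74785322) had 68 and 37.4 CPM at D0, 288 and 179 at D1, 334 and 317 at D3, 60.1 and 216 at D5, and 42.9 and 60.5 at D7. Wnt10a (chromosome 1, 74791516 to 74804179), the only member among 13 tested Hedgehog and Glis target genes, had 43.5 and 39.7 CPM at D0, 205 and 183 at D1, 155 and 174 at D3, 30.4 and 94.3 at D5, and 20.7 and 23.7 at D7. Both encode secreted Wnt ligands and lie 6193 bases apart on the same strand, and neither was called at D7 against D0 (log2 changes -0.05 and -0.92). Lgr6, a receptor for R-spondins, and Sost, a secreted Wnt inhibitor, were also members, at mean levels of 20.6 and 43.7 CPM at D3. Mixl1, a mesendoderm homeobox factor and the only member among 21 tested Wnt target genes, had 0 and 0 CPM at D0, 21.3 and 22.8 at D1, 17.9 and 22.4 at D3, 9.9 and 17.8 at D5, and 4.35 and 3.94 at D7. It rose at D7 against D0 and was at least 4.79-fold higher at D7 against a floor of 3 counts over both D0 libraries (edgeR adjusted p = 0.00631). In the Wnt target list 13 of 21 genes rose and 3 fell in that comparison, against 9.15% of all genes called higher and 8.71% called lower.

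Bambi, a decoy receptor of the TGF-beta family, had 21 and 21.7 CPM at D0, 57.5 and 70.4 at D1, 76.4 and 94.6 at D3, 48.3 and 117 at D5, and 24.1 and 32.9 at D7. Gdf10, a ligand of that family, had 31.8 and 9.73 CPM at D0, 84.6 and 23.5 at D1, 88.7 and 51.4 at D3, 25.4 and 75 at D5, and 12.4 and 13.8 at D7. Hey1, a repressor switched on by Notch, had 2.45 and 8.23 CPM at D0, 29.2 and 46.2 at D1, 95.1 and 171 at D3, 28.3 and 85.1 at D5, and 20.7 and 27.6 at D7. Hey1 rose at D7 against D0 (log2 change 2.25, SE 0.69, edgeR adjusted p = 0.0459), as did Socs3, a feedback inhibitor of cytokine receptors (log2 change 1.88, SE 0.40, edgeR adjusted p = 0.0084), and Fgf17, a fibroblast growth factor, with a ratio of pooled counts of 11.6 (exact 95% counting interval 3.02 to 98.9, edgeR adjusted p = 0.0311). Il9r (chromosome 11, 32187541 to 32200279), a cytokine receptor, had 1.47 and 0.748 CPM at D0, 11.6 and 10.7 at D1, 12.6 and 12.7 at D3, 5.31 and 6.96 at D5, and 1.52 and 0.657 at D7. Adam11 (chromosome 11, 102761439 to 102780262), a non-catalytic ADAM protein of neurons, had 6.36 and 5.99 CPM at D0, 80 and 46.2 at D1, 212 and 206 at D3, 56.3 and 142 at D5, and 34.2 and 21 at D7. Arhgap26, a GTPase regulator, had 4.89 and 5.24 CPM at D0, 14.6 and 11.4 at D1, 10.2 and 14.9 at D3, 7.73 and 12.4 at D5, and 4.57 and 5.26 at D7. At D7 against D0 Il9r and Arhgap26 had log2 changes of 0.07 and -0.06, neither called, and Adam11 rose (log2 change 2.18, SE 0.54, edgeR adjusted p = 0.0179). No cytokine, chemokine or interferon gene (24 tested), no pluripotency gene (24 tested) and no Fgf or Erk feedback gene (22 tested) was a member.

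Cdkn1c (chromosome 7, 143458339 to 143461050), the cell cycle inhibitor p57 and an imprinted gene, had 230.4 and 138 CPM at D0, 864 and 849 at D1, 1839 and 1872 at D3, 479 and 1208 at D5, and 336 and 332 at D7. It lies 31296 bases from Kcnq1 in an imprinted stretch of chromosome 7 that also holds Igf2, H19 and Ins2. Of 12 tested genes of that stretch and its neighbours, listed after the members were known, 5 were members (Cdkn1c, Igf2os, Ins2, Kcnq1 and Th). Ins2, insulin, had 11.3 and 2.25 CPM at D0, 38.6 and 21.3 at D1, 145 and 138 at D3, 38.4 and 295 at D5, and 10.9 and 23 at D7. Th, tyrosine hydroxylase, had 0 and 0 CPM at D0, 14.9 and 2.13 at D1, 17.6 and 20.1 at D3, 6.04 and 18.6 at D5, and 1.96 and 3.94 at D7. Igf2os, antisense to Igf2, had 22 and 31.4 CPM at D0, 46.3 and 85.4 at D1, 86 and 181 at D3, 28.5 and 111 at D5, and 19.1 and 24.3 at D7. Ins2 reached its highest level in D5 replicate 2, 295 CPM against 38.4 CPM in D5 replicate 1. The growth factor Igf2, not a member, had 4179 and 5190.5 CPM at D0, 3071 and 4218 at D1, 2706 and 3752 at D3, 1145 and 2801 at D5, and 1065 and 2275 at D7, and its reads cannot be told apart from those of Igf2os without strand. H19, the imprinted non-coding RNA beside it, had 7197 and 7991 CPM at D0, 8227 and 9638 at D1, 11888 and 12038 at D3, 4005 and 13541 at D5, and 4108 and 7850.2 at D7. Nap1l4, farther along the stretch, had 164 and 193 CPM at D0, 166 and 180 at D1, 167 and 145 at D3, 166 and 166 at D5, and 158 and 149 at D7. Nap1l4 was at about the same level on every day, Igf2 was highest at D0 in each replicate, and H19 peaked in D5 replicate 2.

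Matrix and epithelial genes came from several families. Col9a2 (chromosome 4, 121039385 to 121055322), a collagen IX chain of cartilage, had 7.34 and 5.99 CPM at D0, 122 and 53.4 at D1, 824 and 483 at D3, 137 and 358 at D5, and 65.9 and 103 at D7. Col27a1, a fibrillar collagen of cartilage, had 30.8 and 21 CPM at D0, 96.5 and 86.1 at D1, 96.9 and 109.5 at D3, 27.5 and 47.9 at D5, and 13.7 and 20.4 at D7. Col5a3, a collagen V chain, had 15.2 and 12 CPM at D0, 33.8 and 46.2 at D1, 29.6 and 32 at D3, 4.83 and 23.2 at D5, and 5.44 and 5.91 at D7. Col9a2 rose at D7 against D0 (log2 change 3.62, SE 0.63, edgeR adjusted p = 0.00301), the only call among the 3, while 28 of 59 tested collagen, laminin and integrin genes fell and 6 rose. Itih3 (chromosome 14, 30908572 to 30923760), a hyaluronan-binding plasma protein, had 1.47 and 0.748 CPM at D0, 41.1 and 18.5 at D1, 29.6 and 28.3 at D3, 6.28 and 16.2 at D5, and 2.39 and 0 at D7.

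Jup (chromosome 11, 100368958 to 100397763), plakoglobin of desmosomes and adherens junctions, had 166 and 263 CPM at D0, 512 and 808 at D1, 304 and 645 at D3, 186 and 421 at D5, and 147 and 145 at D7. Evpl (chromosome 11, 116220559 to 116238077), envoplakin of the cornified envelope, had 2.45 and 1.5 CPM at D0, 61.2 and 32.7 at D1, 89 and 87.2 at D3, 24.6 and 81.2 at D5, and 13.7 and 8.54 at D7. Krt19, a keratin of simple and progenitor epithelia, had 44 and 59.9 CPM at D0, 179 and 204 at D1, 236 and 183 at D3, 46.1 and 198 at D5, and 42.6 and 65.7 at D7. Evpl rose at D7 against D0 (log2 change 2.46, SE 0.75, edgeR adjusted p = 0.0443), and Krt19 and Jup were not called (log2 changes 0.05 and -0.56). Krt15, a keratin of basal cells next to Krt19, had 1.96 and 0.748 CPM at D0, 9.13 and 4.27 at D1, 8.78 and 5.96 at D3, 0.966 and 8.51 at D5, and 0.87 and 0.657 at D7. Krt83, a hair keratin, had 0 and 0 CPM at D0, 7.61 and 7.11 at D1, 9.07 and 6.71 at D3, 2.42 and 8.51 at D5, and 1.09 and 1.31 at D7. Pcdh1, a protocadherin of epithelia, had 14.7 and 26.2 CPM at D0, 125 and 77.6 at D1, 92.2 and 125 at D3, 33.1 and 74.2 at D5, and 18.1 and 30.2 at D7. The 4 keratin and protocadherin members were among 44 tested genes of their list, of which 7 rose and 10 fell at D7 against D0. The homeobox gene Dlx3, of skin and placenta, had 13.2 and 15 CPM at D0, 88.9 and 117 at D1, 86 and 124 at D3, 37.4 and 66.5 at D5, and 23.1 and 42.7 at D7. Tnnt3, troponin T of fast muscle, had 12.2 and 13.5 CPM at D0, 26.8 and 32.7 at D1, 19 and 15.6 at D3, 3.14 and 19.3 at D5, and 3.26 and 5.26 at D7. Ccdc88b (chromosome 19, 6844623 to 6858211), a microtubule linker of lymphocytes, had 0.489 and 0 CPM at D0, 35.9 and 23.5 at D1, 43.3 and 26.1 at D3, 9.9 and 22.4 at D5, and 5.22 and 2.63 at D7. Ccdc88b rose at D7 against D0 with a ratio of pooled counts of 15.5 (exact 95% counting interval 2.56 to 632, edgeR adjusted p = 0.035), and Dlx3 and Tnnt3 were not called.

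Enzymes of intracellular signalling were also among the members. Pde2a (chromosome 7, 101421691 to 101512827), a phosphodiesterase that breaks down cyclic AMP and cyclic GMP, had 4.4 and 6.74 CPM at D0, 187 and 166 at D1, 117 and 165 at D3, 61.1 and 183 at D5, and 36.8 and 69 at D7. Rap1gap (chromosome 4, 137664726 to 137729861), which switches off the GTPase Rap1, had 35.2 and 51.6 CPM at D0, 150.3 and 164 at D1, 202 and 388 at D3, 65.2 and 201 at D5, and 33.1 and 55.2 at D7. Prkcb (chromosome 7, 122288751 to 122634402), a calcium-dependent protein kinase C, had 16.1 and 12 CPM at D0, 119.6 and 82.5 at D1, 78.7 and 91.7 at D3, 36.5 and 23.2 at D5, and 20.9 and 17.1 at D7. Pde2a rose at D7 against D0 (log2 change 3.25, SE 0.61, edgeR adjusted p = 0.00448), and Rap1gap and Prkcb were not called (log2 changes 0.01 and 0.43). Orai1, the store-operated calcium channel of the plasma membrane, averaged 86.3 CPM at D1 and 77.1 at D3, and Ppp1r1a, a phosphatase inhibitor related to Ppp1r1b, 32.9 CPM at D1 and 36.5 at D3. For Pde2a the D5 replicate 2 library was as high as the D1 and D3 libraries.

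Transcription factors came from several families. Prdm16 (chromosome 4, 154316125 to 154636873), a regulator of brown fat and of stem cell upkeep, had 4.4 and 2.99 CPM at D0, 19.5 and 36.3 at D1, 14.9 and 49.9 at D3, 6.28 and 10.1 at D5, and 4.35 and 6.57 at D7. Zfp423 (chromosome 8, 87661810 to 87959595), a zinc finger factor of fat precursors and the cerebellum, had 26.4 and 32.2 CPM at D0, 70.9 and 109.6 at D1, 87.5 and 160.2 at D3, 60.9 and 109 at D5, and 37 and 53.9 at D7. For Zfp423 the D3 library was above the D1 library in each replicate. Tlx3, a homeobox selector of sensory neurons, had 0.489 and 0 CPM at D0, 3.35 and 4.98 at D1, 7.02 and 26.1 at D3, 1.93 and 24.7 at D5, and 1.09 and 1.97 at D7. Foxi3, of ear and tooth development, had 0.489 and 0 CPM at D0, 5.17 and 1.42 at D1, 15.2 and 21.6 at D3, 5.56 and 7.73 at D5, and 3.05 and 2.63 at D7. Onecut3, of the liver and nervous system, had 0 and 0 CPM at D0, 6.09 and 3.56 at D1, 2.05 and 2.24 at D3, 0.966 and 6.19 at D5, and 0.218 and 0 at D7. These 3 factors were at or near 0 counts at D0, and none was called at D7 against D0. Mllt6, a fusion partner of the leukaemia gene Kmt2a, had 47 and 71.9 CPM at D0, 217 and 212 at D1, 358 and 353 at D3, 194 and 199 at D5, and 171 and 152 at D7, and it rose at D7 against D0 (log2 change 1.45, SE 0.28, edgeR adjusted p = 0.00582).

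Receptors of cytokines and hormones were a further group. Cntfr (chromosome 4, 41657498 to 41697089), the receptor for ciliary neurotrophic factor, had 10.8 and 19.5 CPM at D0, 93.4 and 162 at D1, 103 and 202 at D3, 49.8 and 162 at D5, and 50 and 59.8 at D7. Il10rb, a shared receptor chain of the interleukin 10 family, had 8.32 and 13.5 CPM at D0, 38 and 29.2 at D1, 42.1 and 58.1 at D3, 16.2 and 37.9 at D5, and 15 and 11.8 at D7. Il18r1, of the interleukin 18 receptor, had 0 and 0 CPM at D0, 1.52 and 1.42 at D1, 15.2 and 23.1 at D3, 2.66 and 3.87 at D5, and 0.653 and 0 at D7. Il18r1 was near 0 at D0 and D7 and was highest at D3. Prlr, the prolactin receptor, had 0.489 and 0.748 CPM at D0, 3.96 and 4.27 at D1, 14.3 and 28.3 at D3, 7.97 and 6.19 at D5, and 1.09 and 6.57 at D7. Il21r, the interleukin 21 receptor, had 0 and 0.748 CPM at D0, 12.8 and 19.9 at D1, 9.36 and 11.2 at D3, 1.21 and 6.96 at D5, and 0.435 and 1.97 at D7. Lax1, a membrane adaptor of lymphocytes, had 33.8 and 12.7 CPM at D0, 105 and 53.4 at D1, 82.8 and 58.1 at D3, 16.4 and 34.8 at D5, and 13.3 and 2.63 at D7. Lax1 was lower at D7 than at D0 within each replicate, without a call (log2 change -1.40, edgeR adjusted p = 0.183). Secreted proteins included Amh, the anti-Müllerian hormone, with means of 17 CPM at D1 and 14.1 at D3, and C1qtnf1, related to adiponectin, with means of 192 and 125 CPM. Nrgn, neurogranin of dendritic spines, had 0 and 0 CPM at D0, 0.913 and 4.27 at D1, 23.4 and 52.9 at D3, 4.59 and 37.1 at D5, and 3.26 and 5.26 at D7, low at D1 and high at D3 in both replicates. Padi1, a peptidylarginine deiminase of skin, showed the opposite order, with 0.979 and 6.74 CPM at D0, 5.48 and 80.4 at D1, 3.51 and 15.6 at D3, 0.966 and 10.1 at D5, and 0.218 and 0 at D7.

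Lipid and glycan enzymes were spread over several pathways. Chpt1 (chromosome 10, 88452745 to 88504073), the cholinephosphotransferase that completes phosphatidylcholine, had 34.7 and 14.2 CPM at D0, 154 and 81.8 at D1, 179.7 and 182 at D3, 62.6 and 73.5 at D5, and 40 and 49.3 at D7, and with Chka it made up 2 steps of the same pathway. Abcg1, a cholesterol exporter, had 6.36 and 2.99 CPM at D0, 27.7 and 18.5 at D1, 33.7 and 22.4 at D3, 10.1 and 22.4 at D5, and 6.09 and 7.23 at D7. Cds1, which makes CDP-diacylglycerol, had 9.3 and 11.2 CPM at D0, 21.3 and 25.6 at D1, 30.7 and 47.7 at D3, 10.1 and 17.8 at D5, and 8.27 and 11.8 at D7. Chpt1 and Cds1 were highest at D3 in both replicates. St6gal1, a sialyltransferase, had 20.1 and 17.2 CPM at D0, 92.5 and 87.5 at D1, 91.9 and 93.9 at D3, 53.1 and 57.2 at D5, and 32 and 31.5 at D7. Eogt, which puts N-acetylglucosamine on EGF domains, had 37.2 and 36.7 CPM at D0, 122 and 82.5 at D1, 93.3 and 109.5 at D3, 50.5 and 58.8 at D5, and 30.7 and 38.8 at D7. Gpc1, a cell surface heparan sulfate proteoglycan, had 40.1 and 97.3 CPM at D0, 211 and 298 at D1, 152 and 221 at D3, 49.5 and 172 at D5, and 30 and 86.1 at D7. None of these 6 genes was called at D7 against D0.

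Of the other lists, 25 Atf4 and amino acid response genes and 3 neural transcription factors were tested with no member among them, and 2 of the Atf4 list rose and 1 fell at D7 against D0. Tnnt3 was the only member among 4 tested skeletal muscle markers. Of 142 tested genes of the Ras superfamily 9 rose and 20 fell at D7 against D0, and of 42 homeobox genes of the Hox, Dlx and related families 3 rose and 13 fell, with 1 member in each.

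Non-coding and little-known members included some with high counts. Gm43305 (chromosome 14, 54292443 to 54297456), a processed transcript, had 349 and 236 CPM at D0, 1101 and 662 at D1, 361 and 522 at D3, 169.6 and 203 at D5, and 154 and 108 at D7. Gm15482 (chromosome X, 53969437 to 53975000), another processed transcript, had 0.489 and 0 CPM at D0, 18 and 4.27 at D1, 15.2 and 18.6 at D3, 3.38 and 1.55 at D5, and 1.96 and 1.31 at D7. Gm43305 was highest in both D1 libraries and fell at D7 against D0 (log2 change -1.15, SE 0.36, edgeR adjusted p = 0.0486). Rtl8b (chromosome X, 53669177 to 53670408), a gag-like gene derived from a retrotransposon, had 81.7 and 71.1 CPM at D0, 413 and 412 at D1, 234 and 358 at D3, 85.8 and 253 at D5, and 53.9 and 76.9 at D7. Its neighbours Rtl8a and Rtl8c were members too, with means of 349 and 21.3 CPM at D1, and since the 3 are near-identical, the counts of each are uncertain. In all, 228 members (96.2%) were protein coding, against 94.6% of the genes tested, and 32 members overlapped another gene with a mean above 1 TPM, so their counts may hold its reads.

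Between D1 and D3 the members split. Of these days, D3 had the higher level in both replicates for 135 members, D1 in both for 49, and the replicates differed for 53. In the test of D3 against D1, 2 members rose (0.844%) and none fell, against 0.0549% of all genes called in either direction. The rule asked for high D1 and high D3 levels, each in another contrast, so the libraries are shared. The members are thus not comparable with unselected genes here, and their counts are given as a description. Crybb1 (chromosome 5, 112255815 to 112269585), a lens crystallin, had 0.489 and 0 CPM at D0, 1.83 and 1.42 at D1, 52.4 and 89.4 at D3, 28.3 and 101 at D5, and 22 and 24.3 at D7. Crybb1 and Trpm1 were both low at D1 and high at D3 in each replicate. The log2 changes were 5.34 (SE 0.72, edgeR adjusted p = 0.0286) for Crybb1 and 3.84 (SE 0.48, edgeR adjusted p = 0.0251) for Trpm1. Neither call held without every single library, with adjusted p up to 0.47 and 0.297. At an unadjusted p under 0.05, 53 members were higher and 8 lower (25.7%, against 8.49% of all genes), DESeq2 called 13 (1% of all genes), and the fit with the replicate block called 18 (1.62% of all genes). The median fitted change was 0.42, against -0.01 over all genes. Without D5 replicate 1 the count was 10 (0.337% of all genes), without D5 replicate 2 it was 9 (0.345%), and it was 0 without either D0 library (0.0235% each), D1 replicate 1 (0.00784%), D1 replicate 2 (0%), D3 replicate 1 (0%), D3 replicate 2 (0.0314%) or D7 replicate 2 (0.0157%).

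The step down after D3 was set beside the D5 libraries, the only ones that the rule did not use. Both tests of this step also hold libraries that chose the members, D3 for being high and D7 for being low, so the direction of the members is largely built in and their counts are given as a description. In the test of D5 against D3 no member was called, against 0.0706% of all genes. With the replicate number as a block, 41 members were called, all lower (3.3% of all genes called). At an unadjusted p under 0.05, 88 members were lower and none higher (37.1%, against 11.8% of all genes), and DESeq2 called 15, all lower, against 0.337% of all genes called lower. In the test of D7 against D5 no member was called, as was no gene at all (0% of all genes), and the block called no member either. There 109 members were lower and none higher at an unadjusted p under 0.05 (46.0%, against 6.35% of all genes), and DESeq2 called 4, against 0.235% of all genes. The median fitted change was -0.9 in the first of these tests and -1.15 in the second, against 0.03 and -0.02 over all genes. Leaving out D5 replicate 2 gave 34 members called, all lower, at D5 against D3 (2.31% of all genes called, 0.667% called lower). Leaving out D5 replicate 1 gave 49 members called, all lower, at D7 against D5 (1.82% of all genes called, 1.02% called lower). The lone D5 library is there assumed to vary as the other days do.

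The D5 libraries differed in how far this step had gone. As a share of the log2 difference between D3 and D7 in the same replicate, the median member had 28.0% left at D5 in replicate 1 and 75.1% in replicate 2. More than 50% was left for 43 members (18.1%) in replicate 1 and for 170 (71.7%) in replicate 2. Of the 237 members 196 (82.7%) had more left in replicate 2. The same held for 413 of 504 other genes that were lower by 1 or more at D7 than at D3 in both replicates (81.9%), whose medians were 25.2% and 71.1%. It held also for 71 of the 90 genes with the mirrored course, down at D1 and up after D3 (78.9%), whose medians were 26.2% and 54.3%. The gap between the D5 libraries was thus present in all 3 sets.

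Among the members, Fxyd6, a modulator of the sodium pump, had -4.6% left in replicate 1 and 85.9% in replicate 2, that is, in replicate 1 it had already passed its D7 level. Krt19 had 4.6% and 107.5% left, and Tcirg1 3.0% and 51.6%. Chrna4 was alike in both, with 65.6% and 69.0% left. Itpr2 had 32.1% and -3.4% left, Chka 27.3% and 6.7%, and Camkk2, a calcium-dependent kinase, 36.8% and 9.3%, so these were further along in replicate 2. Of the 73 members with a mean above 100 CPM at D3, 63 had more left in replicate 2.

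**Figure D3:**
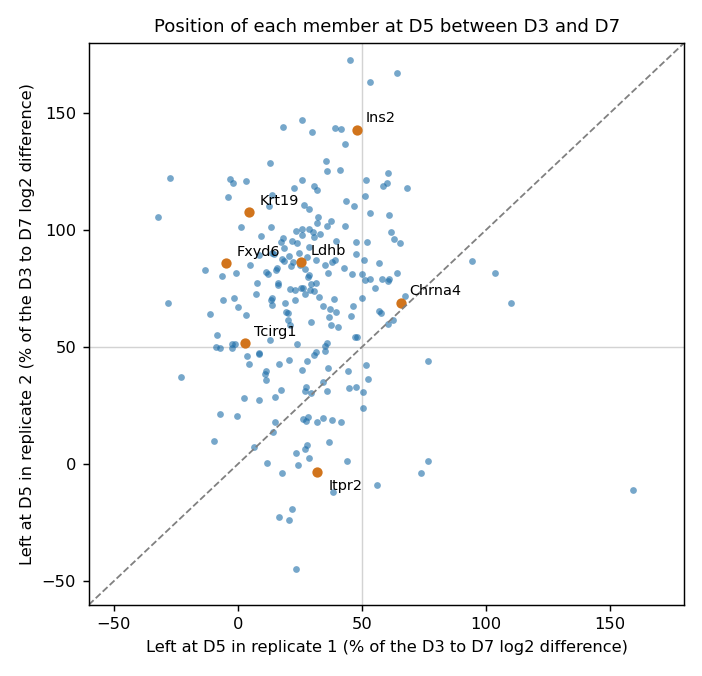
For each member, the share of its D3 to D7 log2 CPM difference still present at D5, in replicate 1 (horizontal axis, %) and replicate 2 (vertical axis, %), with equality dashed and 7 genes marked; 2 members lie outside the axes. Most points are above the dashed line (196 of 237), with medians of 28.0% in replicate 1 and 75.1% in replicate 2.

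Taken over the whole week, most members were not called different from D0. In the test of D7 against D0, 50 members rose (21.1%) and 5 fell (2.11%), against 9.15% of all genes called higher and 8.71% called lower, 17.9% in all. The rule required low D0 and low D7 levels, each against another day, so the libraries are shared with it. The members are therefore not comparable with unselected genes here, and their counts are given as a description. D7 was above D0 in both replicates for 148 members and below D0 in both for 31. The median fitted change was 0.96, or 0.82 over 229 members with levels at or under the floor of 3 counts set to it, against 0.06 over all genes. Of the 55 calls, 14 remained without any 1 library (Acss1, Car2, Col9a2, Crybb1, D630039A03Rik, Gna14, Grk3, Kcnq1, Lmo2, Pdk1, Pglyrp1, Tst, Usp51 and Zdhhc23). The count was 19 without D0 replicate 1 (7.41% of all genes called), 29 without D0 replicate 2 (8.16%) and 24 without D7 replicate 1 (6.6%).

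Further members that stayed up at D7 had other roles. Lmo2, a transcriptional cofactor of blood stem cells, had a D7 to D0 ratio of pooled counts of 102 (exact 95% counting interval 18 to 4040, edgeR adjusted p = 0.00114), and Pglyrp1, a peptidoglycan-binding protein of innate immunity, one of 47.7 (exact 95% counting interval 16.1 to 233, edgeR adjusted p = 0.00104). Crybb1 had a ratio of 76.2 (exact 95% counting interval 13.5 to 3030, edgeR adjusted p = 0.0026), and Gna14, a G protein subunit, one of 39.2 (exact 95% counting interval 6.82 to 1570, edgeR adjusted p = 0.00323). Grk3, a kinase that desensitises G protein-coupled receptors, rose by 3.25 on the log2 scale (SE 0.38, edgeR adjusted p = 0.000438). Tst, the mitochondrial thiosulfate sulfurtransferase, rose by 2.89 on the log2 scale (SE 0.50, edgeR adjusted p = 0.00298). Usp51, a deubiquitinase, had no counts at D0 and was at least 8.47-fold higher at D7 against a floor of 3 counts over both D0 libraries (edgeR adjusted p = 0.0028). Over both D0 libraries 63 members had 3 counts or fewer and 23 had none, and the fitted log2 changes of such genes depend on the prior count.

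The 5 members that fell below their start were Ano5, Gm6325, Extl1, Ptprv and Gm43305. Gm6325, an unprocessed pseudogene on chromosome X, fell by 3.49 on the log2 scale (SE 0.80, edgeR adjusted p = 0.0125). Extl1, a glycosyltransferase related to the heparan sulfate polymerases, fell by 1.60 on the log2 scale (SE 0.41, edgeR adjusted p = 0.0208), and Ptprv, a receptor-type phosphatase locus, by 1.48 on the log2 scale (SE 0.34, edgeR adjusted p = 0.0126). None of these calls held without every single library, with adjusted p up to 0.166, 0.149, 0.173, 0.147 and 0.28 in the order named.

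**Figure D4:**
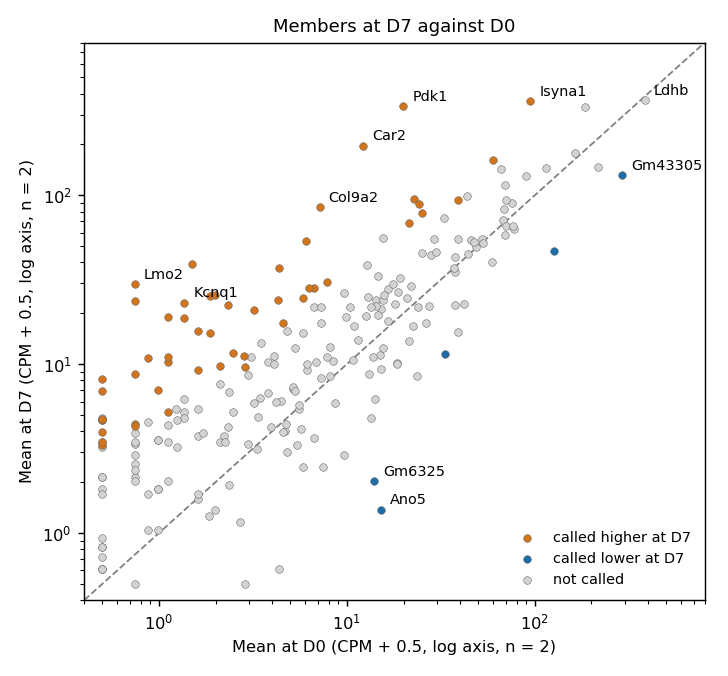
Mean level of each member at D7 (vertical axis) and at D0 (horizontal axis), as CPM + 0.5 on log axes with n = 2 libraries a day; the dashed line marks equality and colours mark the edgeR call at an adjusted p under 0.05. The 50 members called higher (orange), such as Pdk1 (337 CPM at D7, 19.4 at D0), lie mostly at low D0 levels, and 5 called lower (blue) lie below the line.

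The members just inside and just outside the limits differed by little. The smallest of the 4 required changes was 1.002 for Chac2, a glutathione-degrading enzyme, 1.002 for Plpp2, a lipid phosphatase, 1.006 for Bdh1, 1.01 for Atp6v0b and 1.01 for Arhgap26. Just outside were Dcpp3 (0.994), Mlxipl, the carbohydrate-response factor ChREBP (0.992), Tob1, an antiproliferative protein (0.986), Btn1a1, butyrophilin (0.984), and Asb13, an ubiquitin ligase adaptor (0.98).

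Some members were neighbours on the chromosome. Within 100000 bases of each other on GRCm38 lay 24 pairs with 44 members (18.6%), against 19% of the 504 other genes that were lower at D7 than at D3. Neighbours were sought within each set only, and a larger set has more chances of a near neighbour. The shares thus do not compare how clustered the sets are, which was not tested. The closest were Ptprv and Ptpn7, 105 bases apart, and Isyna1 and Ssbp4, 199 bases apart and on opposite strands. Fxyd6 and Fxyd2, which modulate the sodium pump, lay 3509 bases apart, and Krt15 and Krt19 4881 bases apart. On chromosome 19, Chka, Tcirg1, Aldh3b1 and Acy3 followed each other between 3851773 and 3990007. Chromosome 11 held 29 members (12.2%), against 7.93% of the genes tested. The median exon length was 3974 bases for the members and 4466 bases for all genes tested, and the median span was 23616 and 23537 bases.

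Promoter composition was set beside that of all genes tested. Over the 160 matched promoters the median GC content was 62.2%, against 61.3% over all, and the median observed over expected CpG ratio 0.677, against 0.776. Of 11 short motifs searched on both strands, AAGGTCA, the extended monomer site known for Esrrb, lay in 10 member promoters (6.25%) and in 3.04% of all. The cAMP response element TGACGTCA, which AP-1 family dimers can also bind, lay in 4 (2.5%) and in 3.34% of all, and the AP-1 site TGANTCA in 5 (3.12%) and in 4.44%. The Gli and Glis type core GACCACC lay in 3.75% and 2.95%, the hypoxia core ACGTG in 20% and 26.2%, and TATAAA in 6.88% and 6.76%. CAGCACC, from the left part of the site of the neuronal repressor REST, lay in 8.12% and 7.49%, and TGATGNAA, the amino acid response core, in 3.12% and 2.02%. The TEAD site GGAATG lay in 10.6% and 11.6%, and the metal response core TGCACAC in 3.12% and 3.4%. Member promoters with AAGGTCA belonged to Aldh3b1, D630039A03Rik, Dner, Ggt1, Gm8126, Il21r, Ngef, Shisa8, Tbxa2r and Wdr86. The promoters that follow, again in the strand of the gene, show the site in 4 of these and the cAMP response element of Th, each in capitals; in Shisa8 the site is on the other strand and reads TGACCTT.
Aldh3b1, chr19:3929729-3930028, minus strand: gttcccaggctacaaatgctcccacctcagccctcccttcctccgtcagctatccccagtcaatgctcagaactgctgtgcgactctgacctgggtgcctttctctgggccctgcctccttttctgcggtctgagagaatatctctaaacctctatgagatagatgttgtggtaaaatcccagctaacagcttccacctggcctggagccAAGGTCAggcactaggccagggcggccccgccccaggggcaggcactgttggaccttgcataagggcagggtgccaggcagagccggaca
Dner, chr1:84696172-84696471, minus strand: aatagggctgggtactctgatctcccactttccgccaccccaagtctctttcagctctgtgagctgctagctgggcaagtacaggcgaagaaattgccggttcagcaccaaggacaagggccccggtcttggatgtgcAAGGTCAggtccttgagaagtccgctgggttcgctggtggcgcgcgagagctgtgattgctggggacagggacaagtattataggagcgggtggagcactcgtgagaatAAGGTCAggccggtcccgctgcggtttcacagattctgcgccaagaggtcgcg
Wdr86, chr5:24730631-24730930, minus strand: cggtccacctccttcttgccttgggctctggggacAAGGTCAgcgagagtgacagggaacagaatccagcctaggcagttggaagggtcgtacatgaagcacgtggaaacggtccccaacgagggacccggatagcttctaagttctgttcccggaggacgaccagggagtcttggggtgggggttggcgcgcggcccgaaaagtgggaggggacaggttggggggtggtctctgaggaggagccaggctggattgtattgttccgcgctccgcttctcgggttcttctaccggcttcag
Shisa8, chr15:82212766-82213065, minus strand: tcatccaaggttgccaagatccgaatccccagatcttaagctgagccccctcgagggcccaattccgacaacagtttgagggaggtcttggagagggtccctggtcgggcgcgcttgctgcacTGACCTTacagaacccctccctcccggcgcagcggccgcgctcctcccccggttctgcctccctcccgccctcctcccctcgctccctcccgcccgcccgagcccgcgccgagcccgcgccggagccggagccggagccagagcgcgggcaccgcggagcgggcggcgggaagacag
Th, chr7:142899946-142900245, minus strand: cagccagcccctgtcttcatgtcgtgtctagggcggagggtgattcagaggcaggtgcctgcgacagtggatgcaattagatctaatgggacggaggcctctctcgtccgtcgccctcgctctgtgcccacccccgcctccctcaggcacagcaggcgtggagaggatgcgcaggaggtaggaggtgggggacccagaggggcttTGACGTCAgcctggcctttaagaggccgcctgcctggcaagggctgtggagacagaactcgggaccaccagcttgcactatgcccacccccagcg
From the start site, AAGGTCA began at -40 in Aldh3b1, at -112 and -3 in Dner, at -215 in Wdr86 and at -127 in Shisa8, and TGACGTCA at -45 in Th. No binding was measured in these libraries, so the letters describe the sequence only.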

How the data were processed

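RNA-seq was made from cells of each of 5 days, with 2 libraries a day. Per the submitters' processing notes, bcl2fastq, Bowtie2 and RSEM were used with build mm10; the sources used here do not give their versions or the use of strand in counting. The deposited tables hold, per the file headers, expected counts, TPM and FPKM for each gene; FPKM was not used here. The deposited TPM served to compare levels between genes.

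The deposited expected counts were rounded. Genes were filtered by edgeR 4.0.16 (filterByExpr by day, minimum count 10), scaled by TMM, and given as CPM, or as log2 CPM with a prior count of 2 for the limits that chose the members. The quasi-likelihood test was fitted on all 10 libraries with day as the only term, and p-values were adjusted over 12752 genes by Benjamini-Hochberg. The code was tested on simulated data. Alternatives were RLE size factors, DESeq2 1.42.0, no filter, a minimum count of 20, a replicate block and leaving out each library, and for the membership also a prior count of 0.5, log2(TPM + 1) and limits of 1.5.

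Ratios of pooled D7 to D0 counts carry exact 95% intervals, and the floor is 3 counts over both D0 libraries. These cover counting error only. Coordinates are those of GENCODE vM21 (GRCm38).

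The members and the gene lists were chosen with earlier results of these data known. Several lists were matched by the start of the gene symbol, so they can hold genes of another kind. The genes left out by name were not counted in any list. Values in every library are given for the 12 members of highest level, the 12 with the largest changes and members of the gene lists. The lysosomal, vacuolar ATPase, zinc, monocarboxylate, imprinted domain, fuel oxidation and Rtl lists, and further single members described, were chosen after their values were seen. Some members and marker genes are not reported here.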

Additional observations from a re-analysis of the deposited data

How the results depend on the processing

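The number of genes under the limits was 232 with RLE size factors, 263 with a prior count of 0.5, 253 with no filter, 213 with a minimum count of 20 and 163 with log2(TPM + 1), against 237, and 111 with limits of 1.5, of which 111 were members. For D3 against D1, where 2 members were called, the count was 23 with no filter (0.999% of all genes called), 13 with DESeq2 (1%) and 18 with the replicate block (1.62%), and 0 to 10 without 1 library. For D5 against D3, where 0 were called, it was 42 with no filter (1.66%), 15 with DESeq2 (1.18%), 41 with the replicate block (3.3%), and 0 to 34 without 1 library. For D7 against D5, also with 0 called, it was 36 with no filter (0.646%), 4 with DESeq2 (0.235%), 0 with the replicate block (0.157%), and 0 to 49 without 1 library. For D7 against D0, with 55 called, it was 79 with the replicate block (28.5%), and 19 to 78 without 1 library. All 55 of these calls remained with the block. RLE size factors and a minimum count of 20 left each of these 4 counts within 1.5 times. In each test, the highest count without 1 library came with a larger share of all genes called than in the main fit. The ranges without 1 library thus also hold changes in the call rate over all genes, and do not describe the members alone. Same-numbered libraries deviated together, with a correlation across genes of the replicate 1 minus replicate 2 differences of 0.273 to 0.436 over 10 pairs of days (median 0.386), but the labels do not say what a number stands for, so the block stays an alternative. The D5 against D3 change was no longer negative in 3 of 360 alternative values of 24 named members: for Ppp1r1b it was 0.02 without D5 replicate 1, and for Shisa8 0 without D3 replicate 2 and 0.36 without D5 replicate 1. The values without 1 library ran from -2.36 to 0.02 for Ppp1r1b and from -2.97 to 0.36 for Shisa8. The cause of these shifts was not tested. In replicate 2, 3 counts stood for up to 2.26 CPM, so members at or under that level at D0 or D7 cannot be ordered there.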

Other observations

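Nnt, the mitochondrial nicotinamide nucleotide transhydrogenase and a member, had 0 and 12.7 CPM at D0, 4.26 and 27.0 at D1, 9.36 and 48.4 at D3, 15.2 and 13.9 at D5, and 3.92 and 15.8 at D7 (replicates 1 and 2). Replicate 2 was above replicate 1 at D0, D1, D3 and D7 and slightly below it at D5, and the annotation holds a duplicate gene model that overlaps it, so its counts are uncertain.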
